A study of Mus musculus with 12 samples.

Results

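The 9 genes described here, *Ptprn*, *Ppm1j*, *Cd68*, *Nek8*, *Slc9b2*, *Abca7*, *Inf2*, *Arsa* and *Ano9*, were taken from the study's lists of differentially spliced genes after *Srrm2* knockdown, as genes whose counts were lower in Srrm2-KD. They are 9 of the 78 listed genes, of which 77 were found among the 42450 genes of the count table, and all 9 passed the filter on low counts that left 19410 genes for testing. The counts went against this name for 1 gene. *Slc9b2* had more counts in Srrm2-KD than in Gl2-KD, and the other 8 had fewer at both time points on average. PolyA+ RNA was measured in wild-type E14tg2a.4 cells, a male mouse embryonic stem cell (ESC) line. By the study's methods, cultures were kept with serum and the cytokine LIF, and in serum-free ESGRO medium with LIF before collection. The cells were transfected at 50 nM with siRNA duplexes to *Srrm2* (Srrm2-KD) or, as the control, to luciferase of the firefly (Gl2-KD) and were collected at 24 h or, after a second transfection with the same duplexes at 24 h, at 72 h. Each of these 4 groups has 3 libraries, 1 from each of experiments 1, 2 and 3, with 73933196 to 153343831 estimated counts per library. All groups come from 1 cell line. The study calls the experiments biological replicates. The experiment was a block in the fit, so p-values measure the spread between libraries that remains after group and experiment are accounted for.

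SRRM2 is a large serine- and arginine-rich protein of the spliceosome and of nuclear speckles. When an intron is not removed, the transcript that keeps it can be held in the nucleus, can be degraded if the intron brings an early stop codon, or can be translated into an altered protein. When an internal exon is skipped, the exons on either side of it are joined directly. The proteins made from the 9 genes belong to different parts of the cell. *Ptprn*, *Cd68* and *Arsa* encode proteins of secretory vesicles and lysosomes, *Abca7*, *Slc9b2* and *Ano9* encode membrane transport proteins, and *Ppm1j*, *Nek8* and *Inf2* encode a phosphatase, a kinase and a regulator of actin.

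The splicing lists give an intron retention event for 8 of the genes, all with more retention in Srrm2-KD, and an exon with less inclusion in Srrm2-KD for *Cd68*. *Ptprn*, *Nek8* and *Slc9b2* are listed at 24 h, *Ppm1j*, *Abca7*, *Inf2*, *Arsa* and *Ano9* at 72 h, and *Cd68* at both. Each listed intron matched an annotated intron of its gene exactly (GENCODE M21, GRCm38, which is mm10). The letters below are the exon junctions formed when these introns are removed, 15 bases of the exon before and 15 bases of the exon after, read from the annotated transcripts. They are shown because they are the spliced product that a retained intron replaces. Capitals mark the last 3 bases of the first exon and the first base of the next.
Ptprn, intron 22: cttgtccgttctAAGGaccagtttgagttt
Ppm1j, intron 9: caatgatcccagCAGGtatacagctctggc
Nek8, intron 14: tgctggctgttcGATCagtcacagatgaac
Slc9b2, intron 9: tggactgacaagAAGTcagaggtagaaaag
Abca7, intron 16: aggctgtgtgccCAGGccagtatggaatcc
Inf2, intron 12: cctggacattccCTGCtacccgctgcgggt
Arsa, intron 1: ggaaaagtgactCAGTcagactccatggtt
Ano9, intron 8: ttccagccagatCAGCaaagagatctgtag
Ano9, intron 10: tcatggcactgtGGGCtacggtcttcctgg

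Among these 9 introns, 6 follow an exon that ends in AG, against 55.8% of the 174504 introns between coding exons in the reference transcripts of the genes in the table. The junctions of *Nek8* (GAT), *Inf2* (CTG) and intron 10 of *Ano9* (GGG) end otherwise. The introns are short. Their lengths run from 108 and 113 nt in *Ano9*, 152 nt in *Ppm1j* and 216 nt in *Ptprn* through 372 nt in *Nek8*, 436 nt in *Inf2*, 463 nt in *Abca7* and 494 nt in *Arsa* to 665 nt in *Slc9b2*. Thus 8 of the 9 are under 500 nt, against 27.0% of all such introns, whose median length is 1289 nt. These shares describe events that the study's splicing pipeline selected, and no test was made of them.

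The introns also differ in where they lie. The *Ptprn* intron (chr1:75247621-75247836, reverse strand), the *Ppm1j* intron (chr3:104785550-104785701, forward strand) and the *Nek8* intron (chr11:78166778-78167149, reverse strand) are the last of their transcripts, and 97.7%, 90.3% and 98.8% of the coding sequence lies before them. Last introns make up 10.02% of introns between coding exons. The *Slc9b2* intron (chr3:135329918-135330582, forward strand) is the ninth of 12 and the *Inf2* intron (chr12:112607059-112607494, forward strand) the twelfth of 22, with 69.8% and 58.5% of the coding sequence before them. The *Abca7* intron (chr10:80003334-80003796, forward strand) is number 16 of 46, with 34.9% of the coding sequence before it. The *Ano9* introns (chr7:141108143-141108250 and chr7:141107684-141107796, reverse strand) are numbers 8 and 10 of 23. The *Arsa* intron (chr15:89476656-89477149, reverse strand) is the first of 8 and lies in the 5′ untranslated region, before the start codon. Of the 9 introns, 3, those of *Ptprn* and *Nek8* and intron 8 of *Ano9*, have a length that is a multiple of 3, the same share as the 33.3% of all introns between coding exons. No annotated transcript of the same gene covers the whole of any of the 9 introns.

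**Figure D1:**
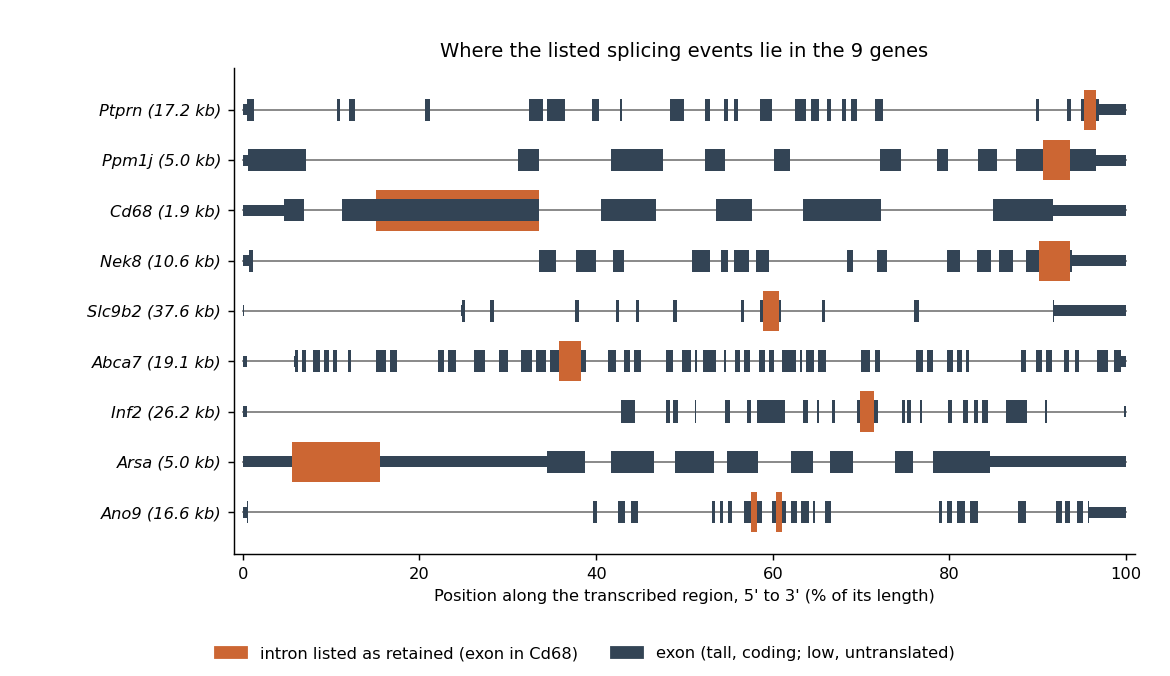
Exon models of the 9 genes, each drawn from the 5′ to the 3′ end as a percentage of its transcribed region (x axis; the length in kb stands beside the gene name on the y axis). Dark boxes are exons, tall where coding, and orange boxes mark the listed introns (in *Cd68*, the listed exon). The events of *Ptprn*, *Ppm1j* and *Nek8* lie near the 3′ end and that of *Arsa* near the 5′ end.

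The *Arsa* intron could be read in full, because a transcript of the antisense gene C230037L18Rik covers it. It starts with GT and ends with AG (capitals), and 42.1% of its bases are G or C.
Arsa intron 1, first 30 bases (chr15:89477120-89477149, reverse strand): GTcaggggcttttgggggcggggagatctg
Arsa intron 1, last 30 bases (chr15:89476656-89476685, reverse strand): aatcagatttgtcttcctggtttgttgcAG
In *Cd68*, the listed exon (chr11:69665503-69665861, reverse strand) makes up 82.7% of the 434-nt exon 2 of the main annotated transcript. It starts 75 nt inside this exon, directly after an AG, which is in capitals in the first line. The second line is the junction at the end of the exon with the next exon. The third is the first junction of a shorter annotated transcript (biotype processed transcript) that joins part of exon 1 to the exon after the skipped one. Capitals mark the bases around these junctions.
Cd68, start of the listed exon (chr11:69665847-69665876, reverse strand): cgatgacacctacAGccacagaaagcacag
Cd68, exon 2 to exon 3: cagggtggaagaAAGGcttggggcatatct
Cd68, shorter transcript, first junction: taggaccgcttaTAGGcttggggcatatct
The deposited values are 1 estimated count per gene, so the spliced and the intron-holding forms of a gene were not separated in the values below.

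The knockdown was checked first. *Srrm2* stood at 911, 496 and 449 CPM (the gene's count relative to the TMM-scaled library size) in experiments 1, 2 and 3 in Gl2-KD at 24 h and at 517, 154 and 199.8 CPM in Srrm2-KD. Per experiment 56.7%, 31.0% and 44.5% of the transcript was left at 24 h, while 72 h left 47.9%, 37.9% and 49.1%. *Srrm2* had log2 fold changes of -1.22 ± 0.14 (SE) and -1.16 ± 0.14 (adjusted p = 0.0663 and 0.0991, edgeR). The fit thus did not call the knocked-down gene itself, so a gene not called at 24 h or 72 h may still have changed. The study's own test called *Srrm2* at both times. All 8 ESC markers examined were expressed, with means over the libraries from 127 CPM (*Klf4*) to 1819 CPM (*Dppa5a*). In these bulk libraries, fewer cells that express a gene and less RNA per cell cannot be told apart.

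The 9 genes were chosen on the comparison of Srrm2-KD with Gl2-KD, so their differences in it are given as a description, with no test. Their median log2 fold change was -0.51 at 24 h and -0.73 at 72 h, beside 0.01 and -0.02 over all genes tested. Srrm2-KD was below Gl2-KD in 3 of 3 experiments for 6 of the genes at 24 h, a pattern that 15.4% of all genes tested showed, and for 8 at 72 h, against 23.1% of all genes. Every Srrm2-KD library lay below every Gl2-KD library for 3 genes at 24 h (*Ptprn*, *Ppm1j* and *Nek8*; 1.55% of all genes) and for 4 at 72 h (these and *Ano9*; 3.67%). The reverse pattern held for 0 of the 9 at 24 h (1.89% of all genes) and for *Slc9b2* at 72 h (2.99%). The median difference was smallest in experiment 1. At 24 h the median log2 ratio of the 9 genes was -0.10 in experiment 1, -0.67 in experiment 2 and -0.75 in experiment 3, and at 72 h it was -0.43, -1.01 and -0.90. Single genes departed from this at 72 h, where *Ano9* had its largest difference in experiment 1 (-1.63) and *Slc9b2* its smallest in experiment 3 (0.46, against 0.65 in experiment 1). Without the Srrm2-KD library of experiment 1, 5 genes were lower without overlap at 24 h, and without that of experiment 3, 7 were at 72 h. The shares of all genes above are for 3 libraries in each group, so they cannot be set beside these 2 counts. Leaving a library out makes overlap rarer by construction. Experiment 1 kept the most *Srrm2* transcript at 24 h (56.7%) but not at 72 h, where it kept 47.9% and experiment 3 kept 49.1%. The part of the remaining *Srrm2* in these differences was not tested.

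**Figure D2:**
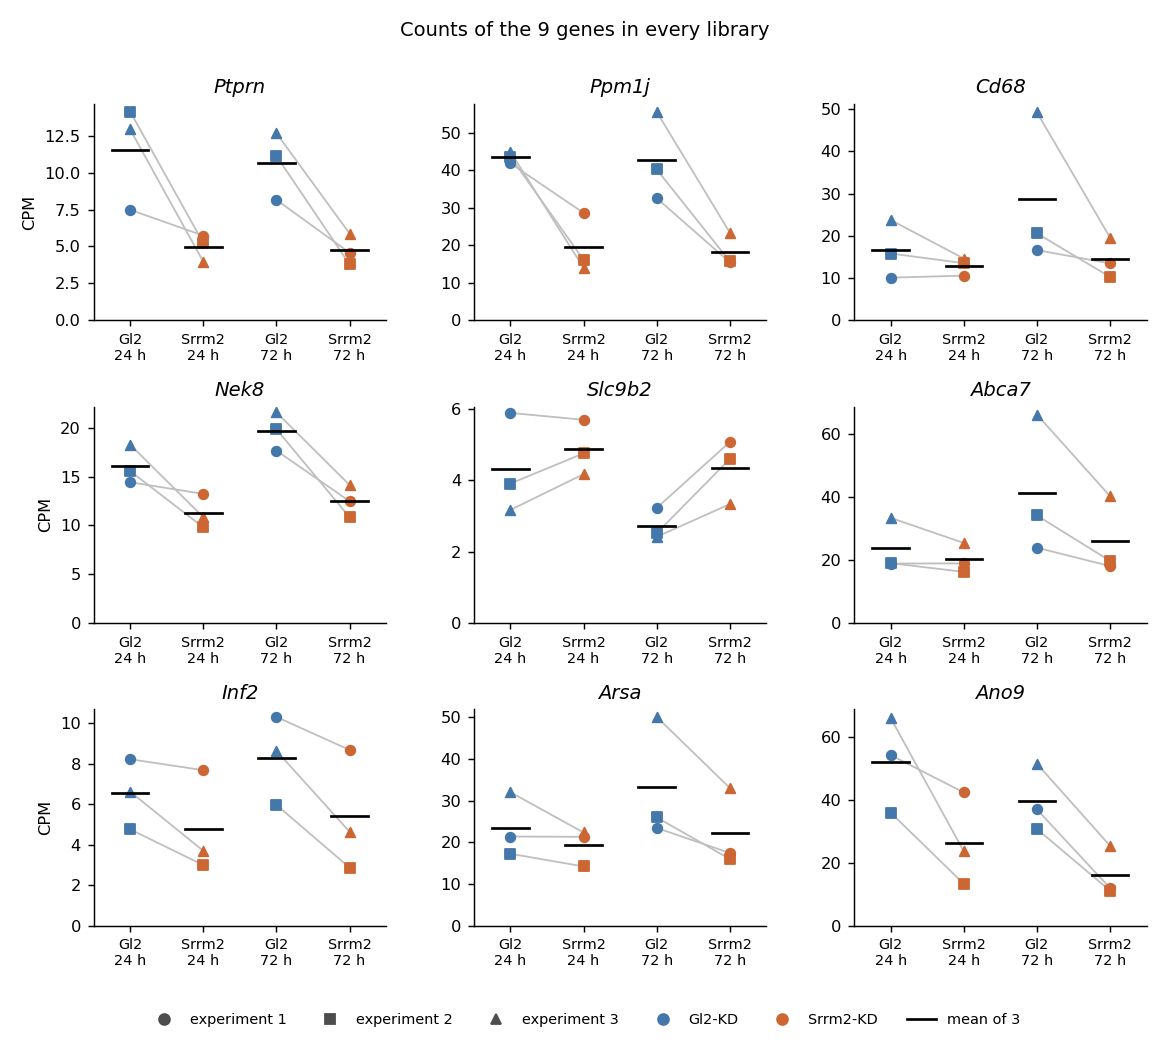
CPM (y axis, linear and from 0) of each of the 9 genes in all 12 libraries, by siRNA and time (x axis). Symbols mark the experiment, grey lines join the libraries of 1 experiment, and black bars are means of 3 libraries. *Ptprn*, *Ppm1j* and *Nek8* have every Srrm2-KD library below every Gl2-KD library at both times, and *Slc9b2* has the reverse order at 72 h.

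*Ptprn* (ENSMUSG00000026204, chr1:75247027-75264502) encodes a receptor-type phosphatase without catalytic activity in the membrane of dense-core secretory vesicles, known as an autoantigen in diabetes. It had 7.49, 14.1 and 12.9 CPM in experiments 1, 2 and 3 in Gl2-KD at 24 h and 5.74, 5.23 and 3.97 CPM in Srrm2-KD. At 72 h it had 8.16, 11.1 and 12.7 CPM in Gl2-KD and 4.58, 3.79 and 5.88 CPM in Srrm2-KD. The groups did not overlap at either time, and the smallest difference was that of experiment 1 at 24 h, where 76.6% of the Gl2-KD level was left. Its log2 fold change was -1.16 ± 0.26 (SE) at 24 h and -1.15 ± 0.26 at 72 h. The mean level over the 12 libraries was 1.88 CPM per kilobase of exon.

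*Cd68* (ENSMUSG00000018774, chr11:69664213-69666153) encodes a glycoprotein of the lysosomal membrane that is widely used as a macrophage marker. Its levels were 10.1, 15.8 and 23.8 CPM in Gl2-KD and 10.6, 13.5 and 14.6 CPM in Srrm2-KD at 24 h. The 72 h levels were 16.6, 20.6 and 49.3 CPM in Gl2-KD and 13.5, 10.3 and 19.6 CPM in Srrm2-KD. The groups overlapped at both times, experiment 1 had slightly more *Cd68* in Srrm2-KD at 24 h, and 1 library, Gl2-KD of experiment 3 at 72 h, stood above all the others. The log2 fold change was -0.27 ± 0.23 at 24 h and -0.88 ± 0.23 at 72 h, and -0.60 at 72 h without that library. The 24 h value rested on single libraries. It was -0.06 without Srrm2-KD of experiment 3 and -0.46 without Srrm2-KD of experiment 2, and it was -0.43 without Gl2-KD of experiment 1 and -0.14 without Gl2-KD of experiment 2. Other macrophage markers were near 0. Of 12 examined, 9 had a mean under 0.1 CPM, *C1qb* was at 0 in every library, and the highest was *Itgam* with 0.694 CPM. Their summed level was 0.493 to 1.29 CPM in Gl2-KD and 0.857 to 1.86 CPM in Srrm2-KD at 24 h, and 0.674 to 0.995 and 1.03 to 1.66 CPM at 72 h. The part of these markers in the *Cd68* values was not tested.

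*Arsa* (ENSMUSG00000022620, chr15:89472476-89477425) encodes arylsulfatase A, the lysosomal enzyme that breaks down sulfatides and is deficient in metachromatic leukodystrophy. It had 21.4, 17.2 and 32.0 CPM in Gl2-KD and 21.3, 14.2 and 22.4 CPM in Srrm2-KD at 24 h. At 72 h it had 23.5, 26.0 and 50.1 CPM in Gl2-KD and 17.4, 15.996 and 33.0 CPM in Srrm2-KD. Every experiment was lower in Srrm2-KD, experiment 1 at 24 h by less than 1%, and the groups overlapped at both times, with experiment 3 the highest for either siRNA. This gave log2 fold changes of -0.25 ± 0.17 and -0.58 ± 0.17. At 24 h the value was -0.48 without the Srrm2-KD library of experiment 1 and -0.08 without that of experiment 3. The antisense gene C230037L18Rik overlaps *Arsa* over 1190 nt and covers its listed intron. It had a mean of 2.75 CPM, with log2 fold changes of -0.20 ± 0.29 and -0.53 ± 0.29. The sources used here do not say whether the authors' counting used the strand of the reads, so reads of this overlap cannot be told apart.

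Among the transport proteins, *Ano9* (ENSMUSG00000054662, chr7:141101212-141117806) belongs to the anoctamins, a family of calcium-dependent ion channels and lipid scramblases. Its levels were 54.2, 35.9 and 66.0 CPM in Gl2-KD and 42.3, 13.3 and 23.6 CPM in Srrm2-KD at 24 h. The 72 h levels were 37.0, 30.7 and 51.5 CPM in Gl2-KD and 11.9, 11.1 and 25.4 CPM in Srrm2-KD. The groups were apart at 72 h only, since the Srrm2-KD library of experiment 1 at 24 h was above the Gl2-KD library of experiment 2. Its log2 fold changes were -1.01 ± 0.29 and -1.34 ± 0.29, the latter the lowest of the 9 genes, and the 24 h value was -1.56 without Srrm2-KD of experiment 1. *Ano9* is also the gene with more than 1 listed intron.

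*Abca7* (ENSMUSG00000035722, chr10:79996494-80015572) encodes an ATP-binding cassette transporter that moves lipids across membranes. It had 18.9, 19.0 and 33.4 CPM in Gl2-KD and 18.9, 16.2 and 25.4 CPM in Srrm2-KD at 24 h, and experiment 1 did not differ between the siRNAs at this time (100.2% of Gl2-KD). At 72 h it had 23.9, 34.2 and 66.3 CPM in Gl2-KD and 18.1, 19.7 and 40.3 CPM in Srrm2-KD, lower in each experiment but with overlapping groups. The log2 fold changes were -0.19 ± 0.16 and -0.65 ± 0.16. At 24 h the value was -0.40 without Srrm2-KD of experiment 1 and -0.04 without Srrm2-KD of experiment 3, and offsets for GC content and length gave -0.10 at 24 h and -0.38 at 72 h.

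*Slc9b2* (ENSMUSG00000037994, chr3:135307700-135345387) encodes a sodium/proton exchanger. It stood at 5.89, 3.91 and 3.17 CPM in Gl2-KD and at 5.69, 4.75 and 4.17 CPM in Srrm2-KD at 24 h. At 72 h it stood at 3.22, 2.51 and 2.41 CPM in Gl2-KD and at 5.07, 4.59 and 3.33 CPM in Srrm2-KD. Every Srrm2-KD library was above every Gl2-KD library at 72 h, and experiment 1 was the lone exception to this direction at 24 h. For *Slc9b2* the log2 fold changes were 0.20 ± 0.17 and 0.66 ± 0.17, and the value stayed above 0 in all 26 other settings tried at each time. At 24 h it was 0.33 without Gl2-KD of experiment 1 and 0.12 without Gl2-KD of experiment 3. By the fit, the Gl2-KD level at 72 h was 64.3% of that at 24 h, and the Srrm2-KD level 88.4%. It is the gene with the lowest level per kilobase, 0.74 CPM, and the longest listed intron. Its neighbour *Bdh2*, which ends 3273 nt before it on the same strand, had log2 fold changes of 0.38 ± 0.18 and 0.77 ± 0.18 (adjusted p = 1 and 0.152, edgeR), and *Slc9b1*, 2641 nt after it, 0.12 ± 0.09 and 0.23 ± 0.09 (adjusted p = 1 and 0.340).

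Among the signalling and cytoskeletal proteins, *Ppm1j* (ENSMUSG00000002228, chr3:104781056-104786018) encodes a serine/threonine phosphatase of the PP2C family. It had 41.8, 43.6 and 44.9 CPM in Gl2-KD and 28.6, 16.1 and 13.96 CPM in Srrm2-KD at 24 h. At 72 h it had 32.6, 40.2 and 55.6 CPM in Gl2-KD and 15.4, 15.7 and 23.4 CPM in Srrm2-KD. The groups were apart at both times, and the 3 Gl2-KD libraries at 24 h were close to each other (43.4 ± 1.55 CPM, SD, n = 3). The log2 fold changes were -1.15 ± 0.27 and -1.24 ± 0.27. *Fam19a3*, on the opposite strand, overlaps the gene over 785 nt, at a mean of 0.263 CPM. Its log2 fold changes were -0.14 ± 0.44 and -1.11 ± 0.46. As with *Arsa*, reads of this overlap cannot be told apart.

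*Nek8* (ENSMUSG00000017405, chr11:78166106-78176675) encodes a kinase of the inversin compartment of the primary cilium. It had 14.4, 15.6 and 18.3 CPM in Gl2-KD and 13.2, 9.81 and 10.9 CPM in Srrm2-KD at 24 h. At 72 h it had 17.7, 19.9 and 21.6 CPM in Gl2-KD and 12.5, 10.8 and 14.2 CPM in Srrm2-KD. The groups did not overlap at either time, with little spread within a group. In the fit the values were log2 -0.51 ± 0.14 and -0.66 ± 0.14. *Tlcd1* starts 35 nt away on the opposite strand, with log2 fold changes of -0.20 ± 0.11 and -0.18 ± 0.11.

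*Inf2* (ENSMUSG00000037679, chr12:112588784-112615557) encodes a formin, which nucleates and also severs actin filaments. Its levels were 8.22, 4.75 and 6.62 CPM in Gl2-KD and 7.68, 2.99 and 3.69 CPM in Srrm2-KD at 24 h. The 72 h levels were 10.3, 5.96 and 8.63 CPM in Gl2-KD and 8.68, 2.86 and 4.64 CPM in Srrm2-KD. Each experiment was lower in Srrm2-KD, yet the groups overlapped, since the Srrm2-KD libraries of experiment 1 lay above the Gl2-KD libraries of experiment 2. The log2 fold changes were -0.53 ± 0.20 and -0.73 ± 0.20, the latter -0.46 with offsets for GC content and length. In experiment 1, 93.4% and 84.2% of the Gl2-KD level was left at 24 h and 72 h, against 62.8% and 48.0% in experiment 2.

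For 7 of the members, the neighbouring gene on 1 side is given first, at 72 h. The log2 fold changes were, for *Dnajb2* beside *Ptprn* -0.31 ± 0.12, *Rhoc* beside *Ppm1j* -0.15 ± 0.18, *Eif4a1* beside *Cd68* 0.02 ± 0.10, *Traf4* beside *Nek8* 0.00 ± 0.11, *Cnn2* beside *Abca7* -0.34 ± 0.15, *Sigirr* beside *Ano9* -0.44 ± 0.19 and *Adssl1* beside *Inf2* -0.66 ± 0.40. None was called (edgeR, 0 of these 7), but edgeR called 0% of all genes tested at 72 h, and *Srrm2* was not called either. On the other side lay *Gm6485* for *Ppm1j* (0.74 ± 0.76), *Arhgap45* for *Abca7* (-0.03 ± 0.12), *Ptdss2* for *Ano9* (-0.17 ± 0.10) and *Tmem179* for *Inf2* (0.10 ± 0.31). *Arsa* lies between *Mapk8ip2* (-0.35 ± 0.14) and *Shank3* (0.02 ± 0.20).

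**Figure D3:**
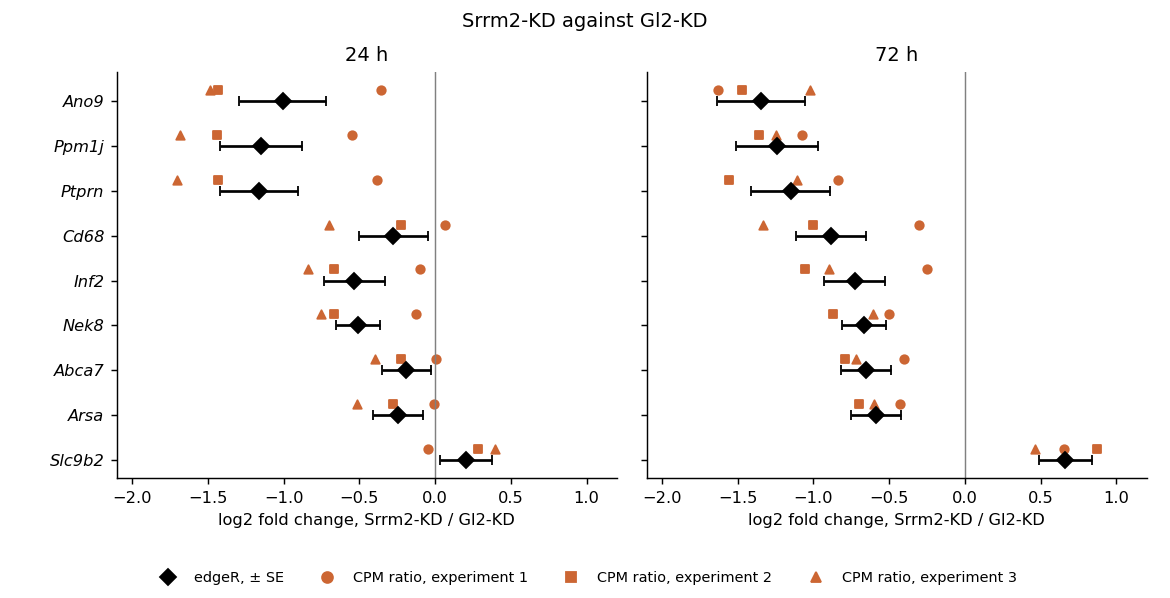
Log2 fold change of Srrm2-KD over Gl2-KD (x axis) for the 9 genes (y axis, in the order of the 72 h values) at 24 h and 72 h. Black diamonds are edgeR estimates with their SE, and orange symbols are the CPM ratios of the 3 experiments. At 24 h the ratio of experiment 1 lies nearest to 0 in each gene, and *Slc9b2* alone lies above 0 at 72 h.

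Levels between genes were compared per kilobase of exon, over all 12 libraries. *Ppm1j* (17.1 ± 7.82 CPM per kilobase, SD, n = 12) and *Cd68* (14.5 ± 8.51) were highest, followed by *Ano9* (7.61 ± 4.02), *Arsa* (6.67 ± 2.71), *Abca7* (4.13 ± 2.12), *Nek8* (2.85 ± 0.72), *Ptprn* (1.88 ± 0.89), *Inf2* (1.28 ± 0.51) and *Slc9b2* (0.74 ± 0.21). The ranges of each gene and the next in this order overlapped. The genes were not compared within each library, so the order was not tested. The reference transcripts of the 9 genes had a median GC content of 57.0%, from 43.4% in *Slc9b2* to 60.4% in *Inf2*, where all genes tested had a median of 50.0% and a middle range of 45.3% to 54.8%. They had a median of 14 introns, against 6 over all genes tested.

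The change with time was tested for the 9 genes, since the mean of 72 h against 24 h over both siRNAs is independent of the comparison on which they were chosen. *Abca7* was called, at a log2 fold change of 0.51 ± 0.12 (SE; adjusted p = 0.0214, quasi-likelihood test of edgeR, Benjamini-Hochberg adjusted over all genes), which is 142% of its level at 24 h. By siRNA, *Abca7* stood at 167% in Gl2-KD and at 121% in Srrm2-KD, given without a test. It was higher at 72 h in 5 of 6 pairs of libraries with the same siRNA and experiment. This is 1 of 9 genes, against 10.5% of all genes tested (5.52% higher and 4.98% lower). The other values did not pass. They were 0.43 ± 0.16 for *Cd68* (adjusted p = 0.117), 0.30 ± 0.12 for *Arsa* (0.126), 0.25 ± 0.14 for *Inf2* (0.288) and 0.22 ± 0.10 for *Nek8* (0.199). *Slc9b2* had -0.41 ± 0.12 and was lower at 72 h in 6 of 6 pairs (adjusted p = 0.0588, edgeR), and *Ano9* had -0.54 ± 0.20 and was lower in 5 of 6 (0.116). *Ptprn* and *Ppm1j* had -0.10 ± 0.18 and -0.08 ± 0.19. The call of *Abca7* was lost without any of 5 libraries, those of experiment 2 in each group (0.47 to 0.52) and Gl2-KD of experiment 3 at 24 h (0.48), and without the whole of experiment 2 (0.46) or 3 (0.35). *Arhgap45*, which starts 1080 nt after *Abca7* on the same strand, rose by 0.53 ± 0.08 over the same time (adjusted p = 0.0047, edgeR).

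More genes were called between experiments than between time points. Experiment 1 differed from experiments 2 and 3 in 53.4% of all genes tested (58.7% at an unadjusted p below 0.05) and in 4 of the 9 genes. The p-values of this comparison do not measure the spread between experiments, so they hold for these cultures only. *Inf2* was higher in experiment 1 by 0.89 ± 0.15 (adjusted p = 3.8e-04, edgeR) and *Slc9b2* by 0.47 ± 0.13 (0.0099), each with its highest level in experiment 1 in 4 of 4 groups. *Cd68* was lower by 0.59 (log2 value -0.59 ± 0.18, adjusted p = 0.0151) and *Abca7* by 0.53 (-0.53 ± 0.13, 0.0043), each with its lowest level there in 3 of 4 groups. The other 5 genes had values from -0.27 ± 0.19 (*Ptprn*) to 0.24 ± 0.21 (*Ano9*). *Cd68* and *Slc9b2* were no longer called without Gl2-KD of experiment 1 at 24 h (-0.49 and 0.36), and *Cd68* without Gl2-KD of experiment 1 at 72 h (-0.48). Against experiment 2 alone, only *Inf2* of the 4 was called.

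**Figure D4:**
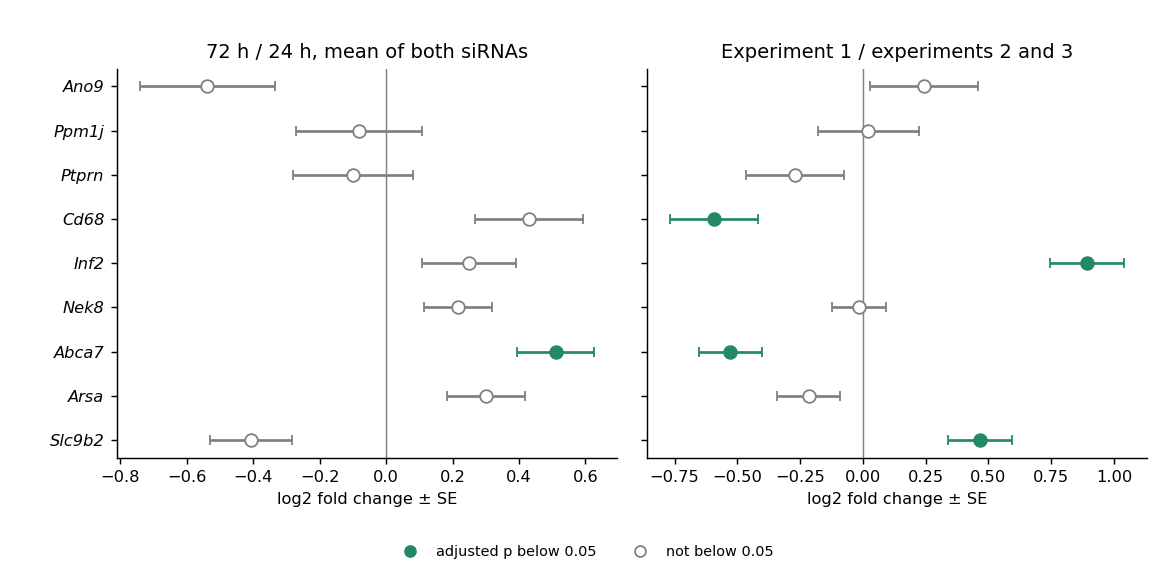
Log2 fold change with its SE (x axis) for the 9 genes (y axis), for 72 h over 24 h averaged over both siRNAs (left) and for experiment 1 over the mean of experiments 2 and 3 (right). Filled symbols have an edgeR adjusted p below 0.05 over all genes tested. *Abca7* is filled on the left, and *Cd68*, *Inf2*, *Abca7* and *Slc9b2* on the right.

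The 9 genes were then set beside the other 66 genes of the splicing lists that could be tested. The others had a median log2 fold change of -0.04 at 24 h and -0.10 at 72 h. By type of event, the medians at 72 h were -0.10 for 27 other genes with a retained intron, -0.11 for 29 with an exon event and -0.07 for 11 with an alternative splice site. Hence 27 of the 35 tested genes with a listed retained intron are not among the 9, and 18 of these 27 had a log2 fold change below 0 at 72 h, beside 52.1% of all genes tested. EdgeR called 0 of the 66 at either time (0% of all genes tested were called at each). At an unadjusted p below 0.05 there were 6 and 7 (2.62% and 12.9% of all genes tested). DESeq2 called 0 and 2 of the 66 (24 and 535 of all 19410 genes tested), and limma-voom 0 and 0 (2 and 4 of all). The lowest values at 72 h outside the 9 genes were those of *Fam173a* (-1.86 ± 1.23 at a mean of 1.18 CPM), *Dtx3* (-0.75 ± 0.15) and *Nfatc4* (-0.72 ± 0.16), whose adjusted p-values were 0.562, 0.124 and 0.144 (edgeR). *Arsa*, at -0.58, was nearest to 0 among the 8 lower genes, and the next listed genes outside them were *Prrg2* (-0.52 ± 0.24) and *Gipr* (-0.50 ± 0.35).

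**Figure D5:**
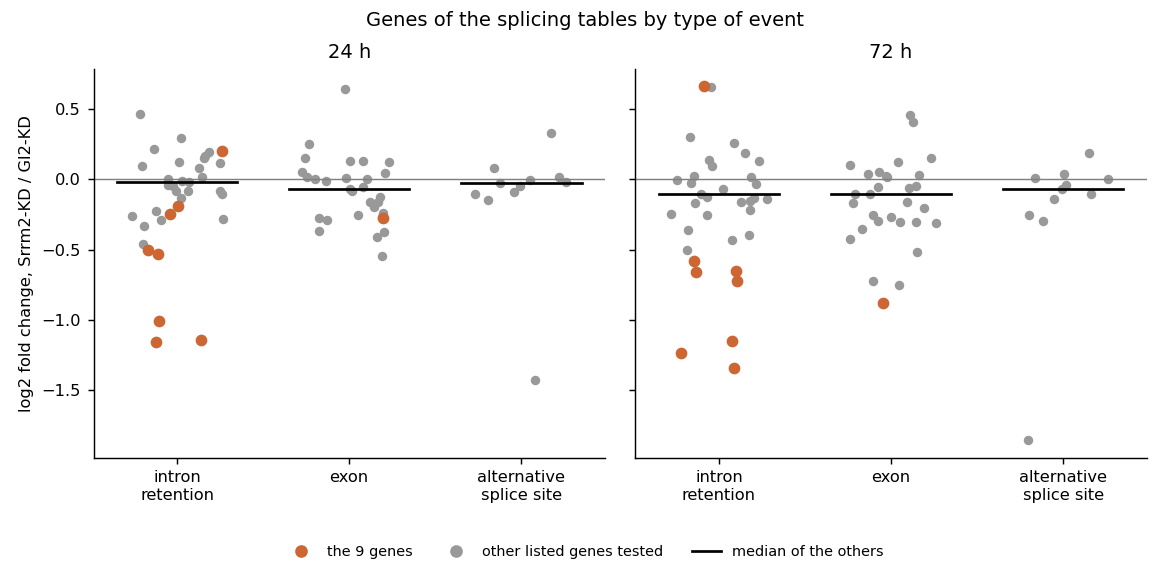
Log2 fold change of Srrm2-KD over Gl2-KD (y axis) for all tested genes of the splicing lists at 24 h and 72 h, by the type of listed event (x axis; horizontal scatter has no meaning, and a gene with several types is drawn in each). Orange points are the 9 genes, grey points the others, and black bars the median of the others. The medians of the others lie between -0.11 and -0.02.

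Genes related to the 9 by function were examined in lists. Of the 97 tested genes in these lists, edgeR called 0 at 24 h and at 72 h, which is also its count over all genes tested. At an unadjusted p below 0.05 there were 1 and 13, against 2.62% and 12.9% of all genes tested. DESeq2 called 0 and 1 (24 and 535 of all genes tested), and limma-voom 0 and 0 (2 and 4 of all genes tested). Of 28 lysosomal genes, the company of *Cd68* and *Arsa*, 21 were lower and 7 higher at 72 h (52.1% of all genes tested were lower) with a median of -0.17, and among those with a mean of at least 1 CPM, a limit kept for all lists, the lowest were *Hexa* (-0.58 ± 0.20, adjusted p = 0.282) and *Galc* (-0.40 ± 0.22, 0.479) and the highest were *Arsg* (0.18 ± 0.40) and *Ctsl* (0.12 ± 0.19). *Hexa* and *Galc* encode enzymes that break down glycolipids. With time, 4 of the 28 were called, all higher, where 10.5% of all genes tested were called. These were *Lamp2* (0.55, adjusted p = 0.0024), *Mcoln1* (0.45, 0.0197), *Ctsa* (0.32, 0.0257) and *Ctsd* (0.32, 0.0304; edgeR).

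A list of 14 tested genes was drawn up around secretory vesicles, where the *Ptprn* protein resides, and includes *Rest*, a nuclear repressor of neuronal genes (-0.04 ± 0.14). The median of the list at 72 h was -0.16. The lowest at a mean of at least 1 CPM were *Chga* (-0.26 ± 0.13) and *Syp* (-0.23 ± 0.17) and the highest *Snap25* (0.77 ± 0.27) and *Pcsk1* (0.64 ± 0.27), and *Syp* (0.59, adjusted p = 0.0147) and *Rab3a* (0.50, 0.0355) rose with time (edgeR). The 6 neuroendocrine markers summed to 22.8 to 31.2 CPM in Gl2-KD and 21.1 to 25.9 CPM in Srrm2-KD at 24 h, and to 22.1 to 34.3 and 18.9 to 30.03 CPM at 72 h, with *Scg2* at a mean of 0.021 CPM. These ranges overlapped, and their part in the values of *Ptprn* was not tested. For the partners of *Nek8* in the cilium (10 tested, median -0.12), the genes at 1 CPM or more ran from -0.50 ± 0.22 for *Invs*, which encodes inversin, and -0.26 ± 0.22 for *Nek6* to 0.09 ± 0.10 for *Ift88* and 0.17 ± 0.11 for *Nek9*. EdgeR called 0 of these 10 with time, with 3 at an unadjusted p below 0.05. Over all genes tested these shares were 10.5% and 27.0%. DESeq2 and limma-voom called 0 of the 10 with time. For formins and actin (14 tested, median -0.13), the genes with a mean of at least 1 CPM ran from -0.33 ± 0.22 for *Actg1* and -0.29 ± 0.18 for *Fmn2* to 0.12 ± 0.11 for *Fmnl2* and 0.07 ± 1.71 for *Daam1*. *Actg1* (-0.77, adjusted p = 0.0146), *Actb* (-0.54, 0.0129) and *Fmnl3* (-0.37, 0.0491) fell with time, while *Inf2* did not pass. In the families of *Ppm1j*, *Slc9b2*, *Abca7* and *Ano9* (19 tested, median -0.20), the lowest with a mean of at least 1 CPM were *Ano10* (-0.54 ± 0.35) and *Ano3* (-0.54 ± 0.35) and the highest *Slc9b1* (0.23 ± 0.09) and *Abca2* (-0.02 ± 0.19). *Ano6* (-0.38, adjusted p = 0.0074), *Ppm1h* (-0.72, 0.0484) and *Ppm1g* (-0.33, 0.0419) fell and *Ano3* (0.92, 0.0442) rose with time. Of the ESC markers, *Pou5f1* (-0.21, 0.0312) and *Zfp42* (-0.28, 0.0250) fell and *Dppa5a* (0.37, 0.0452) rose with time (edgeR).

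The genes whose log2 CPM followed the mean pattern of the 9 genes most closely over the 12 libraries were *Adamtsl5* (Pearson's r = 0.96), *Kmt5c* (0.95), *Sec14l1* (0.95), *Dlgap3* (0.94) and *Nyap1* (0.94). This is a description over libraries that share experiments and groups. The 9 genes were chosen for lower counts in Srrm2-KD, so lower values there follow in part from how the like genes were picked. At 72 h their log2 fold changes were -1.64 ± 0.32, -0.39 ± 0.12, -0.44 ± 0.12, -0.73 ± 0.14 and -0.70 ± 0.21.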

How the data were processed

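PolyA+ RNA-seq libraries (stranded, paired-end, 100 bp) were quantified by the authors with Kallisto 0.46.1 on GENCODE M24 transcripts and deposited as 1 estimated count per gene and library, not scaled for depth. Kallisto assigns reads to annotated transcripts. No transcript of the same gene in M21 covers the whole of a listed intron, and a transcript of the antisense gene C230037L18Rik covers that of *Arsa*. Reads lying wholly within a listed intron may thus have no transcript of its own gene to be assigned to. The part of this in the lower counts was not tested. After rounding to whole numbers, edgeR 4.0.16 was run in R 4.3.3: filterByExpr (minimum count 10, minimum total 15), TMM, 1 fit of all 12 libraries with siRNA and time as groups and the experiment as a block, glmQLFit (legacy=TRUE) and glmQLFTest, called at an adjusted p below 0.05 (Benjamini-Hochberg). The fit left 6 residual degrees of freedom, and the biological coefficient of variation common to all genes was 0.22. The experiment number, from the labels, stands in for the RNA processing day that the authors used, which the sources used here do not give. After removal of group means, libraries with the same number correlated across genes at 0.281 to 0.747 (18 pairs), those with different numbers at -0.628 to 0.231 (36 pairs).

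The members, lists and alternatives were chosen with earlier results of these data known. Of the 42450 gene identifiers, 294 had no match in M21 and held 0.175% of the counts. Event types and coordinates came from the study's splicing tables, whose inclusion values are not reported here. No genome sequence was used, so sequences came from the annotated transcripts. The named genes were the 9 members, *Srrm2*, the 3 lowest other spliced genes at 72 h, overlapping and nearest genes, the 2 lowest and 2 highest genes of each list at a mean of at least 1 CPM, every gene called, and the 5 genes most like the members. *Prrg2* and *Gipr* were named after their values were seen. The alternatives were DESeq2 1.42.0, voom in limma 3.58.1, library totals alone, RLE factors, other filters, legacy=FALSE, other blocks, each time point alone, offsets for GC content and length, and leaving out libraries or experiments. Each test was first run on simulated counts with known changes. Those counts lacked the wide differences between experiments seen in the data, so the runs say little about calls in these libraries.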

Additional observations from a re-analysis of the deposited data

How the results depend on the processing

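The median log2 fold change of the 9 genes stayed below 0 in all 26 other settings, between -0.71 and -0.39 for 24 h and between -0.97 and -0.48 for 72 h. The number of the 9 genes called with time was 1 and became 3 with DESeq2 (*Abca7*, *Slc9b2* and *Ano9*) and 2 (*Abca7* and *Slc9b2*) with limma-voom, with library totals only, with only genes of 10 or more counts in every library and with legacy=FALSE. Of all genes tested, 2038 were called with time in the main fit, 3270 with DESeq2, 2491 with limma-voom, 2607 with legacy=FALSE and 2022 with library totals only. With only genes of 10 or more counts in every library, 2313 of 14895 were called. Without the replicate block, 0 of all genes tested and 0 of the 9 were called with time. The genes of the related lists called with time then went from 16 to 0, while *Abca7* kept a value of 0.58 (adjusted p = 0.631, edgeR; 8.7e-04 to 0.631 over all settings). With libraries or experiments left out, the 9 genes called with time ranged from 0 to 2, those called between experiments from 1 to 5, those lower without overlap from 3 to 6 (24 h) and 4 to 7 (72 h), and the related genes called with time from 0 to 17. Of all genes tested, 0 to 2755 were called with time in these settings and 8619 to 10341 between experiments. Fewer libraries make overlap rarer by construction, and no share over all genes is given beside these counts of genes without overlap. *Arsa* was called with time without the Srrm2-KD library of experiment 1 at 24 h (0.40) and without experiment 1 (0.49). It was also called between experiments, at -0.39 and -0.30, without the Srrm2-KD library of experiment 1 or 3 at 24 h, and at -0.65 without experiment 2, while without experiment 3 its value turned to 0.20, not called. Offsets for GC content and length removed the calls of *Cd68* (-0.28) and *Slc9b2* (0.05) between experiments and added *Ppm1j* (0.45). The other spliced genes called at 72 h went from 0 to 2 with DESeq2, to 1 with no filter on low counts, to 3 with a replicate block for each experiment and time point, to 2 with the 72 h libraries fitted alone and to between 0 and 2 with libraries left out, highest without the Srrm2-KD library of experiment 1 at 24 h. The related genes called at 72 h went from 0 to 1 with DESeq2, to 4 with that block and to 1 with the 72 h libraries alone. Of all genes tested, 535, 724 and 323 were called at 72 h in these settings. With no filter on low counts, 42 of 29168 genes were called at 72 h. With libraries left out, 0 to 55 of all genes tested were, and 42 without the Srrm2-KD library of experiment 1 at 24 h. The causes were not tested. *Slc9b2*, *Ptprn* and *Inf2*, at 4.06 to 7.98 CPM on average, rest on the fewest counts.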
